A study of Mus musculus with 6 samples.

Results

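The genes of 10 late granulocyte products were followed in mouse leukaemia cells: S100a8 and S100a9, which encode the subunits of calprotectin, and Ltf, Camp, Ngp, Lcn2, Mmp8, Mmp9, Cd177 and Olfm4, whose products are stored in secondary and tertiary neutrophil granules. They were taken by gene symbol, and all 10 were among the 35869 symbols listed in each library. Polyadenylated RNA was sequenced from acute myeloid leukaemia cells transformed with MLL-AF9, an oncogenic fusion found in human leukaemia, on a retroviral vector. The cells of every library were clones with floxed alleles of Chaf1b, a subunit gene of the histone chaperone complex CAF-1, and had been transduced with CreERT2, a Cre recombinase that an oestrogen receptor ligand activates. The 3 KO libraries came from such cells given β-estradiol, and the 3 WT libraries from such cells given ethanol, the vehicle. Lysis followed 48 hours after induction, in a medium with the cytokines SCF, IL6 and IL3. The labels do not say how many clones were used or whether replicates were separate cultures, so p-values reflect only how far these samples vary, possibly for technical reasons. Because the ligand went to the KO cells and not to the WT cells, its effect and that of the deletion cannot be told apart.

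Neutrophil precursors make their granules one kind after another. Primary (azurophil) granules, with myeloperoxidase and elastase, come first at the promyelocyte stage; secondary (specific) granules, with lactoferrin and cathelicidin, follow in myelocytes, and tertiary granules, with gelatinase, come last. The transcription factor C/EBPε is required for secondary granule proteins, and calprotectin accumulates in the cytosol over the same stages. MLL-AF9 leukaemia cells are held at an immature myeloid stage, at which the late granule products are normally low.

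Values are TPM, a length-corrected share of each library, rounded to 0.1 TPM and given in the order of the replicate numbers, so that KO libraries 1 to 3 are KO replicates 1, 2 and 3. The labels state about 120 M paired reads of 100 bp per sample, but TPM keeps no depth, so the counting error behind each value is unknown. Chaf1b averaged 15.4 ± 1.97 TPM in KO and 49.4 ± 1.06 TPM in WT (SD, n = 3 each). Transcripts of the leukaemic programme were present in every library, such as Hoxa9 at 166 to 187 TPM in KO and 203 to 219 TPM in WT, while Eya1 and Mecom, of the same list of 13 genes, were listed at 0. Hoxa9 was lower in KO (log2 fold change -0.29, limma adjusted p = 0.029), as was Hoxa10 (-0.22, 0.039). Of the 10 tested genes of this list, 2 were called lower and 0 higher, where 6.11% and 12.9% of all tested genes were. The first replicate of each group stood apart: Pearson's r of log2(TPM + 1) across the 13575 tested genes was 0.998 between KO replicates 2 and 3 and 0.991 between KO replicates 1 and 2, while WT replicates 2 and 3 reached 0.998 and WT replicates 1 and 2 reached 0.984. These r are across genes, which do not count as replicates. The column header of WT replicate 1 also carries a note of a replacement that the other 5 lack.

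Of the 10 granule genes, 6 rose in KO cells: S100a8, S100a9, Lcn2, Cd177, Camp and Olfm4. None was called lower, Ngp and Mmp9 were not called in either direction, and Ltf and Mmp8 were too low to be tested. Genes were tested if at least 3 libraries reached 1 TPM, and called at an adjusted p under 0.05 (limma on log2(TPM + 1), adjusted over all 13575 tested genes). Olfm4 passed this filter through its 3 KO libraries alone. Over all tested genes 19.0% were called, 12.9% as higher and 6.11% as lower in KO. The median log2 fold change of the 10 genes, tested or not, was 1.46, beside 0.01 for all tested genes. The 10 transcripts summed to 665, 1500 and 1341 TPM in KO libraries 1 to 3, against 406, 117 and 148 TPM in WT libraries 1 to 3. The lowest KO sum lay above the highest WT sum. These sums rest mainly on S100a8, S100a9 and Lcn2, which made up 90.3% to 90.6% of them in KO and 65.4% to 80.0% in WT, and 3 of the 10 genes (Ngp, Mmp8 and Mmp9) were highest in a WT library. In bulk RNA, fewer cells of a kind and less RNA per cell cannot be told apart.

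The count of 6 depended on single libraries. So did the calls over all tested genes. Without KO replicate 2 the granule genes called were S100a8 and Cd177, while 0.803% of all tested genes were called. Without KO replicate 3, WT replicate 2 or WT replicate 3, limma called 0 of the 8 tested granule genes, and 0.00%, 0.184% and 0.110% of all tested genes. In each of these 3 fits 6 of the 8 had an unadjusted p under 0.05, as had 24.9%, 28.2% and 28.6% of all tested genes. Without WT replicate 1 all 8 tested granule genes were called higher, where of all tested genes 35.7% were called, 21.6% as higher and 14.2% as lower. Without both first replicates the 8 were again called higher, where of all tested genes 55.8% were called, 28.4% as higher and 27.3% as lower. With KO replicate 1 alone left out, the same 6 genes were called as with all libraries, and 27.1% of all tested genes. The 7 genes S100a8, S100a9, Ltf, Camp, Lcn2, Cd177 and Olfm4 had all KO values above all WT values, an order found for 23.4% of tested genes. Among the KO libraries, replicate 1 was lowest for 9 of the 10 genes and tied for lowest in Ltf, and it was lowest for 34.8% of tested genes.

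**Figure D1:**
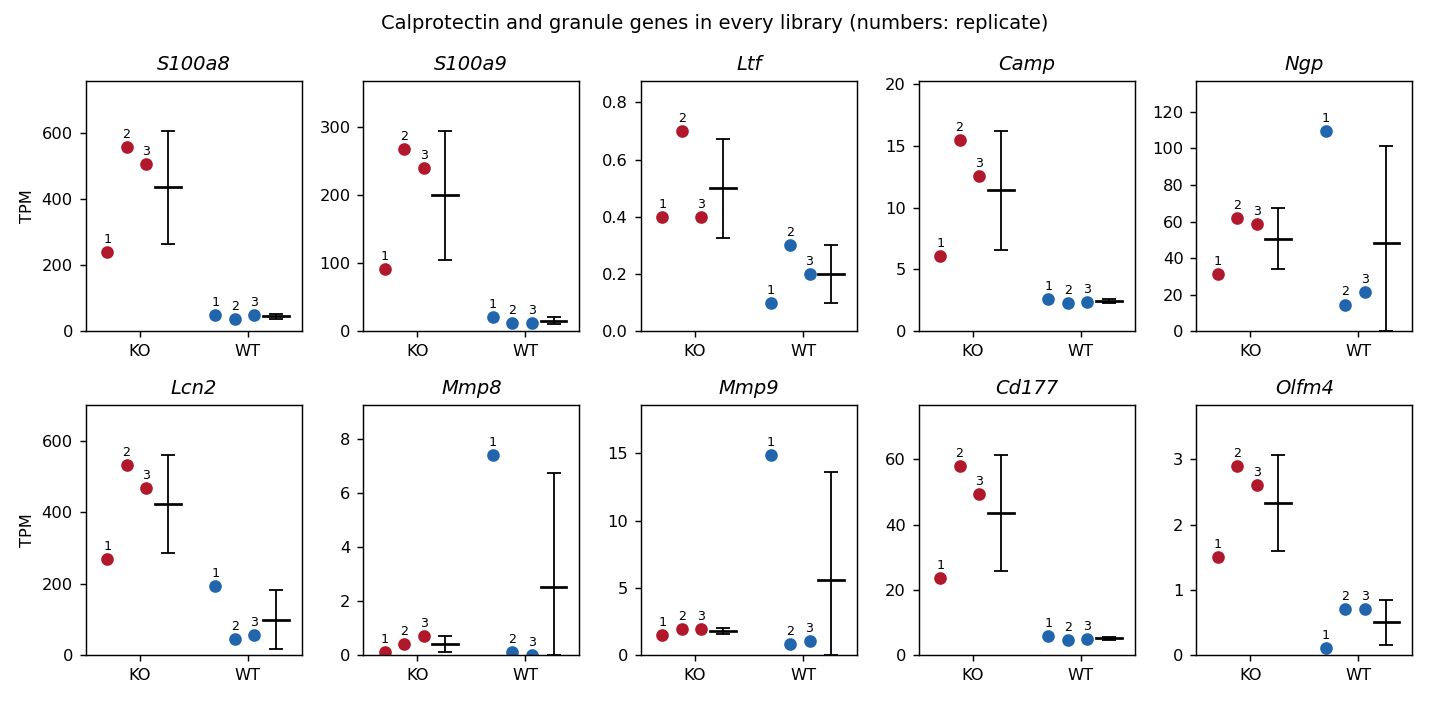
TPM of the 10 granule genes (y axis, from 0, its own scale for each gene) in the 3 KO libraries (red) and the 3 WT libraries (blue); digits give the replicate, and the black bar with whiskers is the mean ± SD of 3 libraries, with the lower whisker stopped at 0. KO replicate 1 was the lowest or tied lowest KO library in every panel, and WT replicate 1 was the highest of the 6 libraries for Ngp, Mmp8 and Mmp9, at 109.5, 7.4 and 14.9 TPM.

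S100a8 and S100a9 encode small calcium-binding proteins that pair as calprotectin, which sequesters zinc and manganese from microbes and signals through the receptor TLR4. S100a8 was at 240.9, 558.3 and 507.3 TPM in KO libraries 1 to 3, against 50.0, 37.2 and 47.6 TPM in WT libraries 1 to 3. All KO libraries were thus far above all WT libraries, and WT replicate 1 lay close to the other WT libraries. Its means of 436 ± 170 TPM in KO and 44.9 ± 6.80 TPM in WT (SD, n = 3 each) had a ratio of 9.69, and on the scale of log2(TPM + 1) the fold change was 3.17 (SE 0.32, limma adjusted p = 0.011). S100a9 was at 91.7, 267.1 and 239.0 TPM in KO libraries 1 to 3, against 21.4, 12.2 and 12.7 TPM in WT libraries 1 to 3. Here WT replicate 1 was 1.72 times the mean of the other 2 WT libraries, and the groups again did not overlap. Its means were 199 ± 94.2 TPM in KO and 15.4 ± 5.17 TPM in WT (SD, n = 3 each), a ratio of 12.9, with a log2 fold change of 3.51 (SE 0.44, limma adjusted p = 0.013). This was the 24th largest log2 fold change of the 13575 tested genes, and that of S100a8 was the 44th. For each called granule gene an exact permutation test on TPM, two-sided, gave p = 0.1, below which 3 against 3 libraries cannot go.

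Both subunit transcripts were present in every library, in unequal amounts. S100a8 exceeded S100a9, in TPM, by 2.63, 2.09 and 2.12 times in KO libraries 1 to 3, and by 2.34, 3.05 and 3.75 times in WT libraries 1 to 3. The ratios of the groups overlapped, through KO replicate 1 and WT replicate 1. The 2 genes lie on mouse chromosome 3 of GRCm38 (mm10), S100a8 at 90669071 to 90670034 on the plus strand and S100a9 at 90692630 to 90695721 on the minus strand, 22.6 kb apart with no protein-coding gene between them in RefSeq.

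Of the other S100 genes, 14 were looked up and 6 passed the filter, of which S100a1 alone was called: it was at 150.3, 212.6 and 197.4 TPM in KO libraries 1 to 3, against 117.6, 108.4 and 100.3 TPM in WT libraries 1 to 3 (log2 fold change 0.76, limma adjusted p = 0.020). These 6 had a median of 0.52 in log2 fold change, and leaving out WT replicate 1 brought the calls to 6 of 6 (3 under quantile normalization of all libraries). Of all tested genes 12.9% were called higher with all libraries and 21.6% without WT replicate 1. S100a6 had its highest value in WT replicate 1, at 267.2 TPM. S100a16 and S100z were listed at 0 throughout. S100a11, the most abundant S100 transcript, was at 1234 to 1459 TPM in KO and 1104 to 1296 TPM in WT (log2 fold change 0.24, limma adjusted p = 0.11). Whether these genes differ from S100a8 and S100a9 in their change was not tested.

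The promoters of 4 of the genes are given for their sequence letters: S100a8 and S100a9 as the pair with the largest fold changes, and Lcn2 and Ngp as 2 genes with high values in WT replicate 1. Each run is RefSeq sequence of GRCm38.p6 on the gene's own strand, 5′ to 3′, from 250 bases before the transcription start to 50 bases from the start on. S100a8 is chr3:90668821-90669120 (plus strand), S100a9 chr3:90695672-90695971 (minus strand), Lcn2 chr2:32387690-32387989 (minus strand) and Ngp chr9:110419558-110419857 (plus strand). Capitals mark matches, on either strand, to the C/EBP motif TTGCNNAA, the ETS/PU.1 motif GAGGAA, the RUNX motif TGTGGT, the NF-κB motif GGGANNTTC or TATAAA, the letters of a TATA box; no matches overlapped.
S100a8: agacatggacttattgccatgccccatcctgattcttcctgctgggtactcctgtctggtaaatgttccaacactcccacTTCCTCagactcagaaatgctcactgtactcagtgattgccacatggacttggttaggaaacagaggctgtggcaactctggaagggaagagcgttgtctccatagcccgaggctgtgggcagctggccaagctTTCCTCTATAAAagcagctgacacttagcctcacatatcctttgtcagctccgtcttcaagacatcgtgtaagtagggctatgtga
S100a9: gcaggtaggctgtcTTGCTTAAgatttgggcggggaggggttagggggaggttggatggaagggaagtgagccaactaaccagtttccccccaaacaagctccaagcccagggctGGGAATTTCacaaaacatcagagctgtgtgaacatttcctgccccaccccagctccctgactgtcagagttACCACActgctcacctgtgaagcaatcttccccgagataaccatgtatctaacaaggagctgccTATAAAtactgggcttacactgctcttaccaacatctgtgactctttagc
Lcn2: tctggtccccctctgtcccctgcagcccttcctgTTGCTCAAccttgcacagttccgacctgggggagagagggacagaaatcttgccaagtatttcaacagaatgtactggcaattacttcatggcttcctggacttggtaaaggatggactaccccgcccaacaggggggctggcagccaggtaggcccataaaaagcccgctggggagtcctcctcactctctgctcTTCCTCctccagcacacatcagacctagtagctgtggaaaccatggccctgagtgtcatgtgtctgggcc
Ngp: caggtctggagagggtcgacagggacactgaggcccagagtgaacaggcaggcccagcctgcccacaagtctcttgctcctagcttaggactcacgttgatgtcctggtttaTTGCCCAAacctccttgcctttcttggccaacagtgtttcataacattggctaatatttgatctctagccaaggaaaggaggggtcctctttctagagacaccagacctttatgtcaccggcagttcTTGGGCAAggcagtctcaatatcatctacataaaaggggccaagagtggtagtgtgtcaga

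Promoter sequences were found for 9 of the 10 genes. The C/EBP motif was present in 5 of the 9 (S100a9, Ltf, Ngp, Lcn2 and Mmp8), while 10.8% of all 32851 mouse promoter sequences of this length hold it. Ngp has 2 matches, at -138 to -131 and at -11 to -4, counted from 0 at the first transcribed base. The ETS/PU.1 motif was present in 6 of the 9 (S100a8, Ltf, Lcn2, Mmp8, Cd177 and Olfm4), against 28.3% of all promoters, and the letters TATAAA in S100a8, S100a9, Mmp8 and Cd177, against 13.6%. The TATAAA matches lie at -30 to -25 in S100a8 and at -40 to -35 in Cd177, but at 0 to 5 in S100a9 and, on the opposite strand, at -3 to 2 in Mmp8, neither of them upstream of the start as a TATA box is. S100a9 alone of the 9 held the NF-κB motif, which 3.94% of all promoters hold, and the RUNX motif was in S100a9 and Ltf, against 16.8%. Neither the STAT motif TTCNNNGAA, found in 8.30% of all promoters, in any of the 9, nor any motif of those searched in Camp, was found. The C/EBP letters were in the called S100a9 and Lcn2, in the uncalled Ngp, and in Ltf and Mmp8, which were not tested. The called S100a8, Camp, Cd177 and Olfm4 lacked them. Whether matches go with the calls was not tested. A match is a run of letters, not a bound site.

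**Figure D2:**
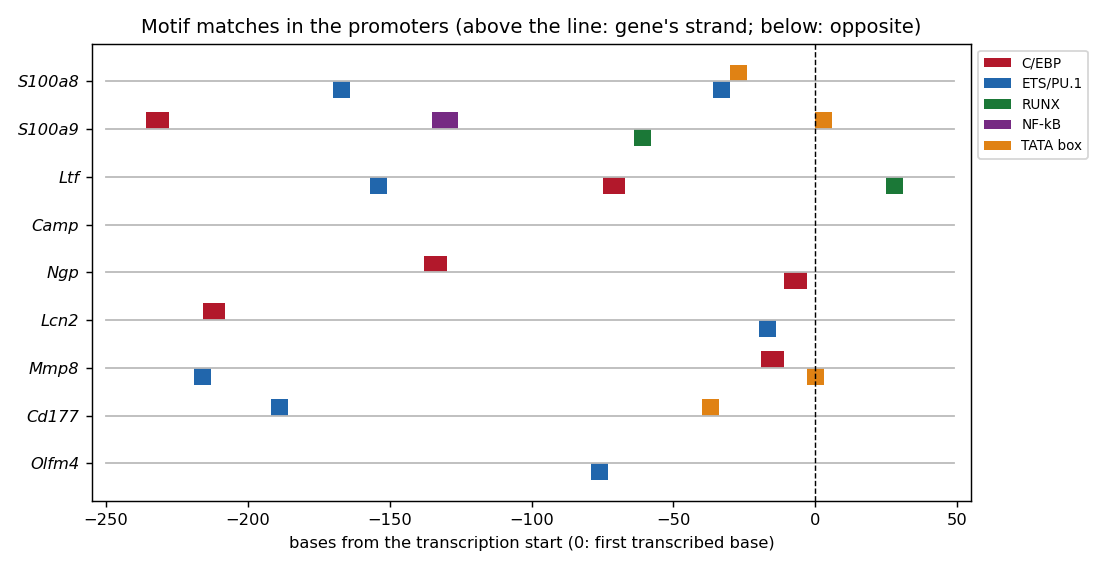
Motif matches in the promoters of 9 granule genes, by distance in bases from the transcription start (x axis, 0 is the first transcribed base); boxes above a line are on the gene's own strand and boxes below it on the opposite strand, coloured by motif. C/EBP letters stand in 5 promoters, 2 of the matches in Ngp, and Camp has no match.

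Lcn2 encodes lipocalin 2, a secondary granule protein that binds bacterial siderophores and so withholds iron. It was at 268.2, 533.6 and 468.7 TPM in KO libraries 1 to 3, against 194.3, 44.4 and 57.0 TPM in WT libraries 1 to 3. The groups did not overlap, but WT replicate 1 was 3.83 times the mean of the other 2 WT libraries and came near KO replicate 1. Means were 424 ± 138 TPM in KO and 98.6 ± 83.1 TPM in WT (SD, n = 3 each), with a log2 fold change of 2.35 (SE 0.57, limma adjusted p = 0.039). Without the filter on low values the adjusted p was 0.063, and without WT replicate 1 the log2 fold change was 2.99 (adjusted p = 0.019). Lcn2 lies on chromosome 2, 32384637 to 32387739, on the minus strand. In KO its mean lay within the spread of S100a8, the other leading transcript: Lcn2 was the highest of the 10 in KO replicate 1 and in all 3 WT libraries, and S100a8 in KO replicates 2 and 3.

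Cd177 encodes a surface protein of neutrophils that is anchored by a lipid and also lies in the secondary granule membrane. Its values were 23.5, 57.8 and 49.3 TPM in KO libraries 1 to 3, against 5.7, 4.7 and 4.8 TPM in WT libraries 1 to 3. WT libraries were close together, and every KO library was far above them. The ratio of the means, 43.5 ± 17.9 TPM in KO and 5.07 ± 0.55 TPM in WT (SD, n = 3 each), was 8.59, with a log2 fold change of 2.78 (SE 0.32, limma adjusted p = 0.012). Cd177 (chromosome 7, 24743983 to 24760334, minus strand) was the member closest to S100a8 in pattern: after centring each gene on its own mean of log2(TPM + 1), they differed by a root mean square of 0.21 over the 6 libraries, beside 0.27 for S100a8 and S100a9.

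Camp and Ngp, both on chromosome 9, encode granule proteins with a related cathelin-like part; Camp is the precursor of the antimicrobial peptide CRAMP. Camp (109847377 to 109849456, minus strand) was at 6.1, 15.5 and 12.6 TPM in KO libraries 1 to 3, against 2.6, 2.3 and 2.4 TPM in WT libraries 1 to 3. All 3 WT libraries were nearly equal, and Camp had a log2 fold change of 1.77 (SE 0.30, limma adjusted p = 0.018) between 11.4 ± 4.81 TPM in KO and 2.43 ± 0.15 TPM in WT (SD, n = 3 each). Ngp (110419808 to 110423012, plus strand) was at 31.5, 61.8 and 58.6 TPM in KO libraries 1 to 3, against 109.5, 14.6 and 21.5 TPM in WT libraries 1 to 3. WT replicate 1 was the highest of all libraries for Ngp and the other WT libraries were the lowest. Its group means of 50.6 ± 16.6 TPM in KO and 48.5 ± 52.9 TPM in WT (SD, n = 3 each) differed by less than the spread between replicates (log2 fold change 0.55, SE 0.73, limma adjusted p = 0.62). Without WT replicate 1, Ngp had a log2 fold change of 1.40 (adjusted p = 0.032), and without WT replicate 2 of -0.0091 (adjusted p = 0.996). The ratio of Ngp to Camp in TPM was 5.16, 3.99 and 4.65 in KO libraries 1 to 3, against 42.1, 6.35 and 8.96 in WT libraries 1 to 3. Camp and Ngp are 570.4 kb apart, with 8 protein-coding genes between them.

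Ltf, the lactoferrin gene, 596.3 kb beyond Ngp on the same chromosome (111019292 to 111042766, plus strand), stayed near the rounding step of the data. It was listed at 0.4, 0.7 and 0.4 TPM in KO libraries 1 to 3, against 0.1, 0.3 and 0.2 TPM in WT libraries 1 to 3. The groups did not overlap, at steps of 0.1 TPM. Ltf did not pass the filter, and in the fit without a filter its adjusted p was 0.098 (limma). In the mouse uterus Ltf is a known oestrogen-responsive gene, and all KO cells here had received β-estradiol. A response of Ltf to the ligand was not tested. Olfm4, a glycoprotein gene that marks a subset of neutrophils (chromosome 14, 80000302 to 80023141, plus strand), was also low, at 1.5, 2.9 and 2.6 TPM in KO libraries 1 to 3, against 0.1, 0.7 and 0.7 TPM in WT libraries 1 to 3. In contrast to Ngp and Lcn2, it was lowest in WT replicate 1. Olfm4 had a log2 fold change of 1.15 (SE 0.24, limma adjusted p = 0.028), which lay between 0.41 with a pseudocount of 5 and 2.22 with a pseudocount of 0.1, since its level is close to the pseudocount of 1. In GENCODE M21 the only gene that overlaps any of the 10 is Gm6999, a noncoding gene on the strand of Olfm4.

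Mmp8 and Mmp9 encode the neutrophil collagenase of secondary granules and gelatinase B of tertiary granules, enzymes that cut matrix collagens. Mmp9 (chromosome 2, 164940326 to 164955850, plus strand) was at 1.5, 1.9 and 1.9 TPM in KO libraries 1 to 3, against 14.9, 0.8 and 1.0 TPM in WT libraries 1 to 3. A single library, WT replicate 1, held the high value, 16.6 times the mean of the other 2 WT libraries. The log2 fold change of Mmp9 was -0.48 (SE 0.82, limma adjusted p = 0.70) with all libraries and 0.54 (adjusted p = 0.024) without WT replicate 1, so its direction was set by that library. The call without WT replicate 1 rests on values of 0.8 to 1.9 TPM, close to the pseudocount of 1. Mmp8 (chromosome 9, 7558429 to 7568486, plus strand) was at 0.1, 0.4 and 0.7 TPM in KO libraries 1 to 3, against 7.4, 0.1 and 0.0 TPM in WT libraries 1 to 3. It too was high in WT replicate 1 alone and at the rounding step elsewhere in WT, and was not tested.

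**Figure D3:**
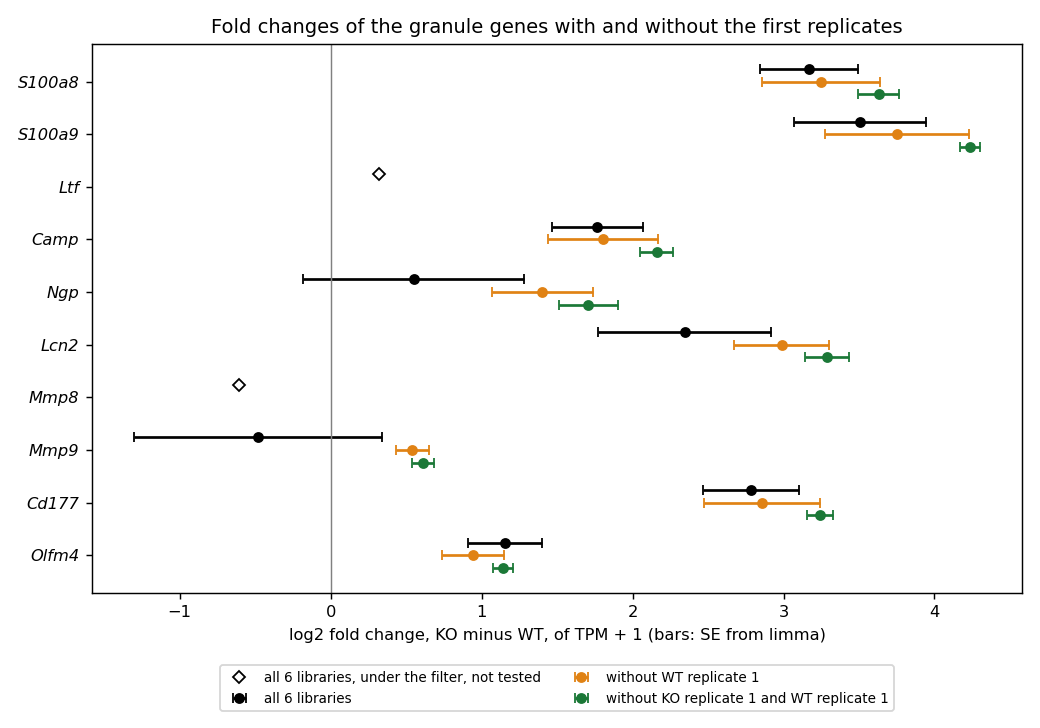
Log2 fold change of TPM + 1, KO minus WT (x axis), of the 10 granule genes with all libraries (black), without WT replicate 1 (orange) and without both first replicates (green); bars are limma's SE, and open diamonds are differences of Ltf and Mmp8, which were not tested. Mmp9 moved across 0, from -0.48 with all libraries to 0.54 without WT replicate 1, and Ngp from 0.55 to 1.40. Without WT replicate 1, S100a8, S100a9, Camp, Cd177 and Olfm4 shifted by less than their SE with all libraries.

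**Figure D4:**
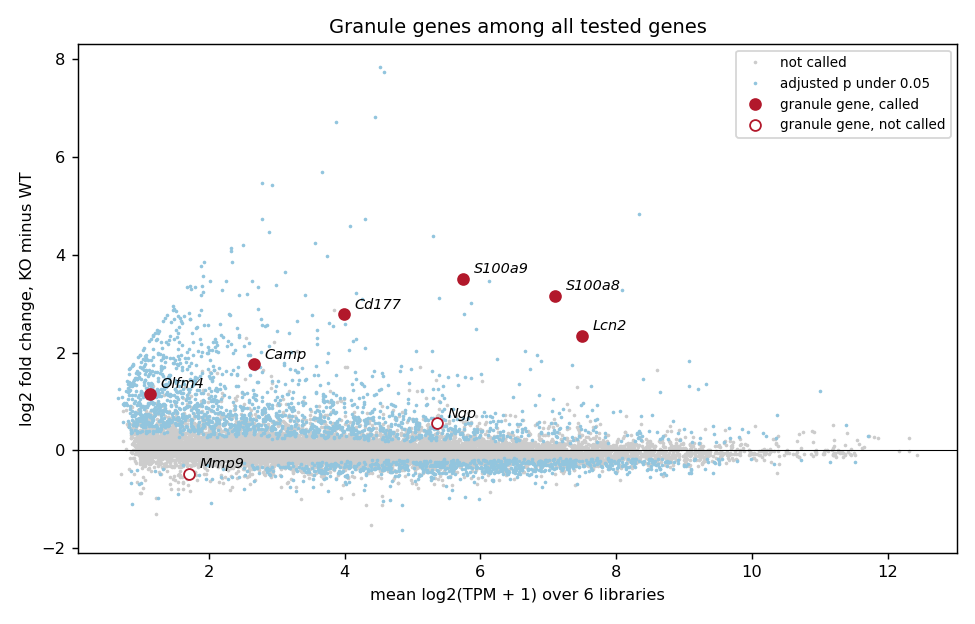
Log2 fold change, KO minus WT (y axis), against the mean log2(TPM + 1) over 6 libraries (x axis) for all 13575 tested genes; blue points were called at an adjusted p under 0.05, and the 8 tested granule genes are named, filled where called. S100a8, S100a9, Lcn2 and Cd177 stand above most genes of like mean, with log2 fold changes from 2.35 to 3.51, and the uncalled Ngp and Mmp9 at 0.55 and -0.48.

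WT replicate 1 thus split the granule genes. Its TPM was at least 2 times the mean of WT replicates 2 and 3 for Ngp, Lcn2, Mmp8 and Mmp9, which is 4 of the 10, and for 3.93% of tested genes. For S100a8, Camp and Cd177 it was 1.18, 1.11 and 1.20 times that mean, and for Olfm4 it was 0.14 times. The 4 genes high in WT replicate 1 differed from each other in KO: the KO mean was 2.18 times WT replicate 1 for Lcn2, 0.46 times for Ngp and 0.12 times for Mmp9. In the same library Mpo, the myeloperoxidase gene of primary granules, was the lowest, at 19.4 TPM, against 127.6 and 83.8 TPM in WT replicates 2 and 3, while KO libraries 1 to 3 had 1017.6, 2311.4 and 2232.8 TPM.

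**Figure D5:**
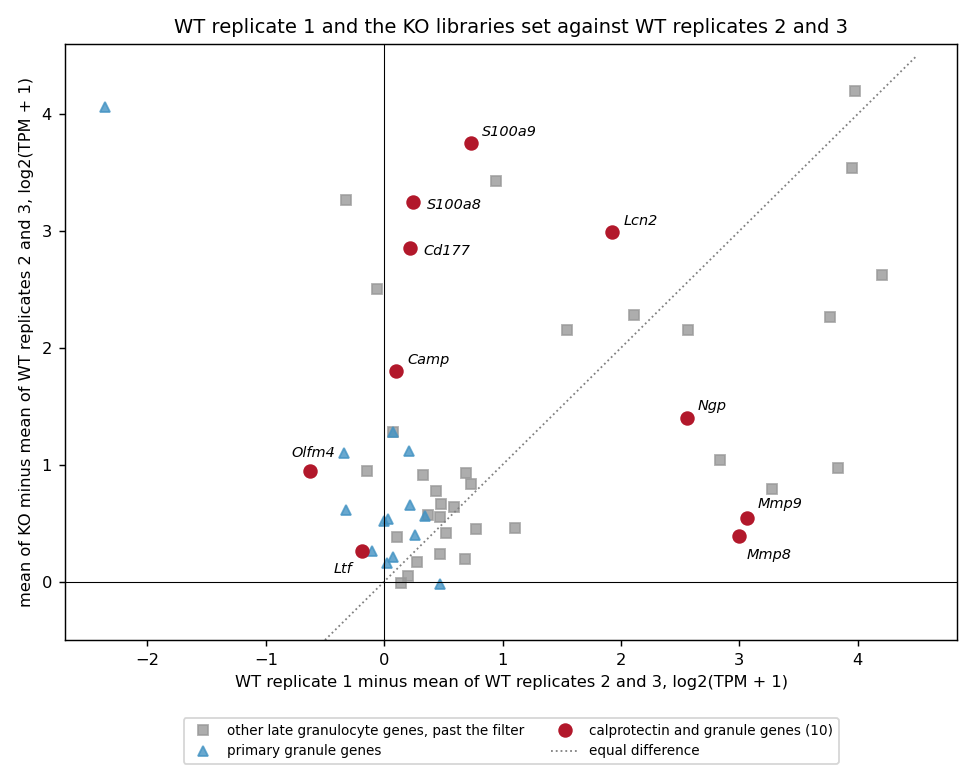
For each gene, WT replicate 1 minus the mean of WT replicates 2 and 3 (x axis) and the KO mean minus the same 2 libraries (y axis), both in log2(TPM + 1), for the 10 granule genes (red), the other late granulocyte genes past the filter (grey squares) and the primary granule genes (blue triangles). Both axes share WT replicates 2 and 3, so points can lie along the dotted line of equal difference for that reason alone; S100a8, Cd177 and Camp lie near 0 on the x axis, and Ngp, Mmp8 and Mmp9 to the right of the line.

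The same split was seen among 39 other late granulocyte genes, a list chosen with earlier results of these data known. Of the 32 that passed the filter, 6 were higher and none lower (median 0.54 on the log2 scale), and 26 were called higher once WT replicate 1 was left out. Of all tested genes 12.9% were higher and 6.11% lower, and 21.6% were higher without WT replicate 1. WT replicate 1 was at least 2 times the mean of the other WT libraries for 12 of the 32, and for 3.93% of all tested genes. Wfdc21, a small whey acidic protein family gene, was at 65.0, 178.0 and 158.4 TPM in KO libraries 1 to 3, against 21.0, 10.2 and 10.7 TPM in WT libraries 1 to 3 (log2 fold change 3.12, limma adjusted p = 0.014). Ceacam10 and Lyz2, a lysozyme gene, rose by log2 fold changes of 2.52 and 1.26, and Trem3, an activating receptor, by 1.00 (limma adjusted p = 0.014, 0.016 and 0.011). Ceacam10 and Chil3, 2 of the 6 genes counted as higher, passed the filter through their KO libraries alone. Stfa2 and Stfa3, of the stefin A family of protease inhibitors, had the largest ratios in WT replicate 1: Stfa3 was at 2.8, 8.7 and 6.2 TPM in KO libraries 1 to 3, against 17.3, 0.5 and 0.2 TPM in WT libraries 1 to 3. Stefin A genes are near copies of each other, which leaves the split of reads among them uncertain. The summed TPM of the list was 5434 to 7689 in KO and 3962 to 6029 in WT.

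Of 14 primary granule genes, all tested and with Lyz2 in this list too, 0 reached 2 times the mean of the other WT libraries in WT replicate 1, where 3.93% of all tested genes did, and 9 of the 14 were higher and none lower in KO (median 0.52 on the log2 scale). Of all tested genes 12.9% were higher and 6.11% lower. Elane, which encodes neutrophil elastase, was at 2600.7, 3351.5 and 3532.9 TPM in KO libraries 1 to 3, against 1151.9, 1362.8 and 1562.3 TPM in WT libraries 1 to 3 (log2 fold change 1.22, limma adjusted p = 0.013). Whether the granule stages differ in their response was not tested.

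Genes closest in pattern were searched among 8925 tested genes that averaged 5 TPM or more, leaving out predicted models, by the root mean square difference of centred log2(TPM + 1) over the 6 libraries. Closest to S100a9 were Serpinb2, Gfi1b, C5ar1, Cxcl3 and Wfdc21, with differences of 0.13 to 0.21. C5ar1, the complement C5a receptor of myeloid cells, was at 9.5, 24.4 and 20.9 TPM in KO libraries 1 to 3, against 1.9, 0.5 and 0.7 TPM in WT libraries 1 to 3. Closest to Ngp were Lilr4b, Lrg1, Il13ra1, Adam8 and Lilrb4a (0.22 to 0.35). Lrg1, which encodes a secreted leucine-rich glycoprotein also stored in neutrophil granules, was at 12.1, 29.1 and 25.8 TPM in KO libraries 1 to 3, against 35.2, 4.8 and 5.2 TPM in WT libraries 1 to 3. Closest to Mmp9 were Stfa2l1, Klf2, Adam8, Mir7062 and Ctss (0.30 to 0.39). None of them was called, but they were picked for being like an uncalled gene in the same libraries. Their lack of a call is therefore not a separate result. Mir7062, a gene of a microRNA, is too short for its value to be firm.

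Transcription factors and cytokine receptors of the granule programme were compared as a list of 26 genes, of which 24 passed the filter, 5 were higher and 1 was lower. Of all tested genes 12.9% were higher and 6.11% lower. Cebpe, the gene of C/EBPε, was at 488.5, 692.8 and 649.9 TPM in KO libraries 1 to 3, against 312.7, 232.6 and 247.8 TPM in WT libraries 1 to 3 (log2 fold change 1.20, limma adjusted p = 0.014). Its groups did not overlap, and WT replicate 1 was the highest WT library. Runx1, Gfi1 and Cebpd, all regulators of myeloid differentiation, rose by log2 fold changes of 0.79, 0.54 and 0.28 (limma adjusted p = 0.019, 0.023 and 0.032), and Cebpa by 0.31 (0.042). The gene that fell was Irf8, a factor of the monocyte and dendritic lineages, at 27.2, 14.5 and 15.9 TPM in KO libraries 1 to 3, against 46.6, 37.8 and 39.5 TPM in WT libraries 1 to 3 (log2 fold change -1.11, limma adjusted p = 0.028). Csf3r, the receptor of G-CSF, was at 4.2 to 4.6 TPM in KO and 4.2 to 5.0 TPM in WT (limma adjusted p = 0.63), and Spi1, which encodes PU.1, at 128 to 140 TPM in KO and 124 to 152 TPM in WT (0.98).

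Of 19 receptors, partners and inhibitors of the granule proteins, 13 passed the filter, 1 was higher and none lower, and 7 were higher without WT replicate 1. Of all tested genes 12.9% were higher, and 21.6% without WT replicate 1. The gene that rose was Lrp1, a scavenger receptor that binds lactoferrin, at 2.7, 5.9 and 5.2 TPM in KO libraries 1 to 3, against 1.0, 0.6 and 0.6 TPM in WT libraries 1 to 3 (log2 fold change 1.65, limma adjusted p = 0.015). Timp2, an inhibitor of matrix metalloproteinases, was at 32.0 to 47.0 TPM in KO and 17.0 to 48.9 TPM in WT, highest in WT replicate 1. Tlr4 was at 64.4 to 76.5 TPM in KO and 38.6 to 59.2 TPM in WT (limma adjusted p = 0.051). Itgam and Itgb2, among the genes higher without WT replicate 1, also stand in the list of other late granulocyte genes. Cd68, also among them, is listed with the monocyte and macrophage markers too. Csf3r stands in both the late granulocyte list and that of transcription factors and cytokine receptors. Counts of these lists are thus not separate.

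Markers of other cells moved in part with the granule genes. For comparison, 12.9% of all tested genes were called higher. WT replicate 1 was at least 2 times the mean of the other WT libraries for 3.93% of all tested genes. Monocyte and macrophage markers summed to 1338 to 1663 TPM in KO and 1098 to 1229 TPM in WT, with 4 of the 9 tested higher, Ms4a7 listed at 0 and 4 of the 9 at least 2 times higher in WT replicate 1 than in the other WT libraries. Mast cell and basophil markers summed to 130 to 217 TPM in KO and 88.5 to 110 TPM in WT, with 2 of 5 higher and Prss34, Fcer1a and Tpsb2 at 0. For eosinophils the sums were 17.5 to 25.4 TPM in KO and 9.9 to 12.4 TPM in WT, with Siglecf higher, 1 of 2 tested, and Ear1 and Il5ra at 0. Dendritic cell markers summed to 288 to 299 TPM in KO and 251 to 389 TPM in WT, with 3 of 6 higher and Siglech at 0. B, T and NK cell markers (13 of 14 matched) summed to 181 to 280 TPM in KO and 106 to 121 TPM in WT, with 5 of 5 higher and Ms4a1, Cd4, Cd8a and Ncr1 at 0. Erythroid and megakaryocyte markers had sums of 46.6 to 85.7 TPM in KO and 20.2 to 35.9 TPM in WT, with 4 of 8 higher and none at 0 throughout, and stromal and endothelial markers of 40.4 to 102 TPM in KO and 14.4 to 21.8 TPM in WT, with 2 of 3 higher and Dcn and Kdr at 0. Among the genes counted as higher, H2-Aa, Cd79a, Pf4 and Col1a1 passed the filter through their KO libraries alone. Several of these sums rest mainly on a single gene. In KO replicate 2, Ly6c2 held 1321.3 of the 1602.2 TPM of monocyte and macrophage markers. In the same library Siglecf held 22.4 of 25.4 TPM for eosinophils, and Bst2 243.3 of 287.9 TPM for dendritic cells. Nkg7, also counted among the primary granule genes, held 230.8 of 280.2 TPM for B, T and NK cells. Acta2 held 95.3 of the 101.7 TPM of stromal and endothelial markers. The part of such cells in the granule gene values was not tested.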

How the data were processed

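The 6 libraries, 3 KO and 3 WT, were grouped by their labels. Libraries were stranded and poly(A)-selected, per the labels' protocols. The submitters' processing notes name mm10, featureCounts (1.6.2), STAR (2.6.1e), cutadapt (1.9.1) and Trim Galore (0.4.2). They give no annotation, strand setting or step from counts to TPM. The authors deposited TPM per gene symbol, rounded to 0.1. No counts were held, so no count model was used, and depth is unknown.

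From these values log2(TPM + 1) was compared, KO minus WT, in limma (version 3.58.1, under R 4.3.3). The model held genotype alone, the variance prior followed a trend in the mean, tests were two-sided, and p-values were adjusted by Benjamini-Hochberg over the 13575 genes that reached 1 TPM in 3 or more libraries. Fold changes on this scale understate those of low genes. The procedure was tested on simulated data, in which all genes and libraries had the same spread. No simulated replicate stood apart, so the effect of the first replicates was not covered. The genes described and all lists were chosen with earlier results of these data known. Beside the 10 genes and Chaf1b, up to 4 called genes per list and direction were named, those with the smallest adjusted p. Up to 2 of the largest ratios in WT replicate 1 were also named, and some genes of the rule are not printed. Chil3, Cd79a, S100a11, S100a16, S100z, Csf3r, Spi1, Tlr4, Cebpa, Eya1, Mecom and genes listed at 0 were chosen after their values were seen. Itgam and Itgb2 are named only because lists share them. Positions came from RefSeq and overlaps from GENCODE M21, both on GRCm38; promoter sequences came from RefSeq, GRCm38.p6. All 6 libraries were counted: between libraries of a group, identical TPM was found for 8.48% of tested genes at the most. Such a check can find a copied library, but cannot show whether libraries came from separate cultures. The alternatives tried are given under the dependence on processing.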

Additional observations from a re-analysis of the deposited data

How the results depend on the processing

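Over 17 alternatives, 134 values of the 8 tested granule genes were recomputed: 103 kept their direction and their side of the threshold, 26 lost the call, 2 gained it and 3 reversed. The reversals were Mmp9 without WT replicate 1 (0.54) and without both KO replicate 1 and WT replicate 1 (0.61), and Ngp without WT replicate 2 (-0.0091). With 1 replicate left out, log2 fold changes lay between -0.0091 and 1.40 for Ngp and between -1.03 and 0.54 for Mmp9, and without both first replicates that of Ngp was 1.71. The 6 granule genes called became 5 without a filter and 5 with a mean of at least 5 TPM, stayed the same 6 under all pseudocounts, scalings and variance settings, ranged from 0 to 8 when 1 replicate was left out, and were 8 without both first replicates. The median log2 fold change of all 10 granule genes lay between 0.78 (pseudocount of 5) and 2.15 (pseudocount of 0.1). Over all genes, 2575 calls became 1578 with a mean of at least 5 TPM, where fewer genes were tested, and 7569 without both first replicates; leaving out 1 replicate gave from 0 to 4850. Calls were 67.8% higher in KO as deposited and 43.9% under quantile normalization, 56.0% with a mean of at least 5 TPM, 80.4% without a filter. The cause of these changes was not tested.

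Replicate numbers are shared by the groups, but nothing in the labels pairs them: deviations of same-numbered libraries from their group means had correlations of -0.20, -0.15 and -0.16 across genes, and 0 of 6 libraries correlated best with their own number. With the replicate number as a block, 333 genes and 3 granule genes (S100a8, Cd177 and Olfm4) were called.

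With 3 libraries a group and no depth, values near 0.1 TPM (Ltf, Mmp8) limit what can be said of these genes.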
